A study of Mus musculus with 12 samples.

Results

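A group of 10 genes of the sialyltransferase family were followed in mouse cerebral cortex after ischemia–reperfusion: St3gal5, St8sia1, St8sia5, St6galnac5, St6galnac6, St6galnac3, St6galnac4, St3gal2, St3gal3 and St8sia3. They were taken by gene symbol, 10 of the 14317 genes in the expression table. The list was selected on FPKM of these same tMCAO/R and Sham libraries, with the difference between the groups already known, so their own levels are described here without a test. All 10 reached the minimum level for testing, which was 0.5 FPKM in at least 6 libraries. FPKM are the fragments mapped to a gene per kilobase of its length, scaled by the fragments of the library, so levels can be set side by side between genes.

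The tMCAO/R mice (n = 6) had the middle cerebral artery occluded for 60 min and were sampled after 24 h of reperfusion, the only time point. The Sham mice (n = 6) were operated controls. Both groups were described as male C57BL/6J mice, an inbred laboratory strain, 8 weeks of age, with no transgene or drug. By description, poly(A) RNA came from the cortical penumbra, the tissue bordering the infarct, of the side that was operated on. Each mouse gave 1 library.

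Library totals ranged from 13048211 to 15799130 fragments. The Sham libraries did not match the male label: Ddx3y, Eif2s3y, Kdm5d and Uty, all on chromosome Y, were listed at 0 in every Sham library, whereas their summed level was 7.79 to 15.9 FPKM in tMCAO/R libraries. Sex and surgery therefore cannot be told apart in any difference given here. Markers of other brain regions differed between the groups. All 6 hippocampal markers fell (summed level 6.41 to 8.79 FPKM in tMCAO/R mice and 151 to 248 FPKM in Sham mice), and all 7 striatal markers rose (52.2 to 490 FPKM in tMCAO/R mice and 22.0 to 31.9 FPKM in Sham mice). Choroid plexus markers summed to 0.728 to 4.39 FPKM in tMCAO/R mice and 33.1 to 1859 FPKM in Sham mice. Markers of cortical glutamatergic neurons were present in every library, with sums of 131 to 262 FPKM in tMCAO/R mice and 122 to 166 FPKM in Sham mice. Of these 7 cortical markers, 5 rose and none fell. The make-up of the dissected tissue and surgery cannot be told apart either, in any difference given here. The library of tMCAO/R mouse 4 stood apart from the other 5 of its group, and member values that rest on it are given with and without it.

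Sialyltransferases are Golgi enzymes that move sialic acid from the activated donor CMP-sialic acid to the ends of sugar chains on lipids and proteins. In brain, much of the sialic acid is carried by gangliosides, sphingolipids of neuronal membranes that are built stepwise from lactosylceramide. St3gal enzymes cap galactose, St6galnac enzymes add sialic acid to N-acetylgalactosamine, and St8sia enzymes extend an existing sialic acid. The same families also finish the O-GalNAc glycans of proteins, which start from N-acetylgalactosamine linked to serine or threonine.

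Among these genes St6galnac5 showed the lowest level in tMCAO/R mice relative to Sham mice, at 31.2% of the Sham mean, and St6galnac3 followed at 42.9%. St8sia3 was 1.76 times and St3gal5 1.51 times the Sham mean. The remaining 6 genes had group ranges that overlapped. In terms of the adjusted p threshold of 0.01 used for other genes, 2 of the 10 were higher and 2 were lower, against a background of 35.6% of the 11743 tested genes past it, 17.8% higher and 17.8% lower in tMCAO/R mice. Without tMCAO/R mouse 4, St3gal2 joined St3gal5 and St8sia3, which made 3 higher, and the 2 lower genes stayed St6galnac5 and St6galnac3, against a background that was then 22.4% higher and 21.2% lower. Groups without overlap, found for 4 of the 10 genes (2 higher and 2 lower), were found for 27.0% of all tested genes (13.8% higher and 13.2% lower). The median difference in log2(FPKM + 1), tMCAO/R minus Sham, was 0.07 over the 10 genes and -0.01 over all tested genes. Because the comparison was known when the genes were listed, nothing is read from these counts.

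**Figure D1:**
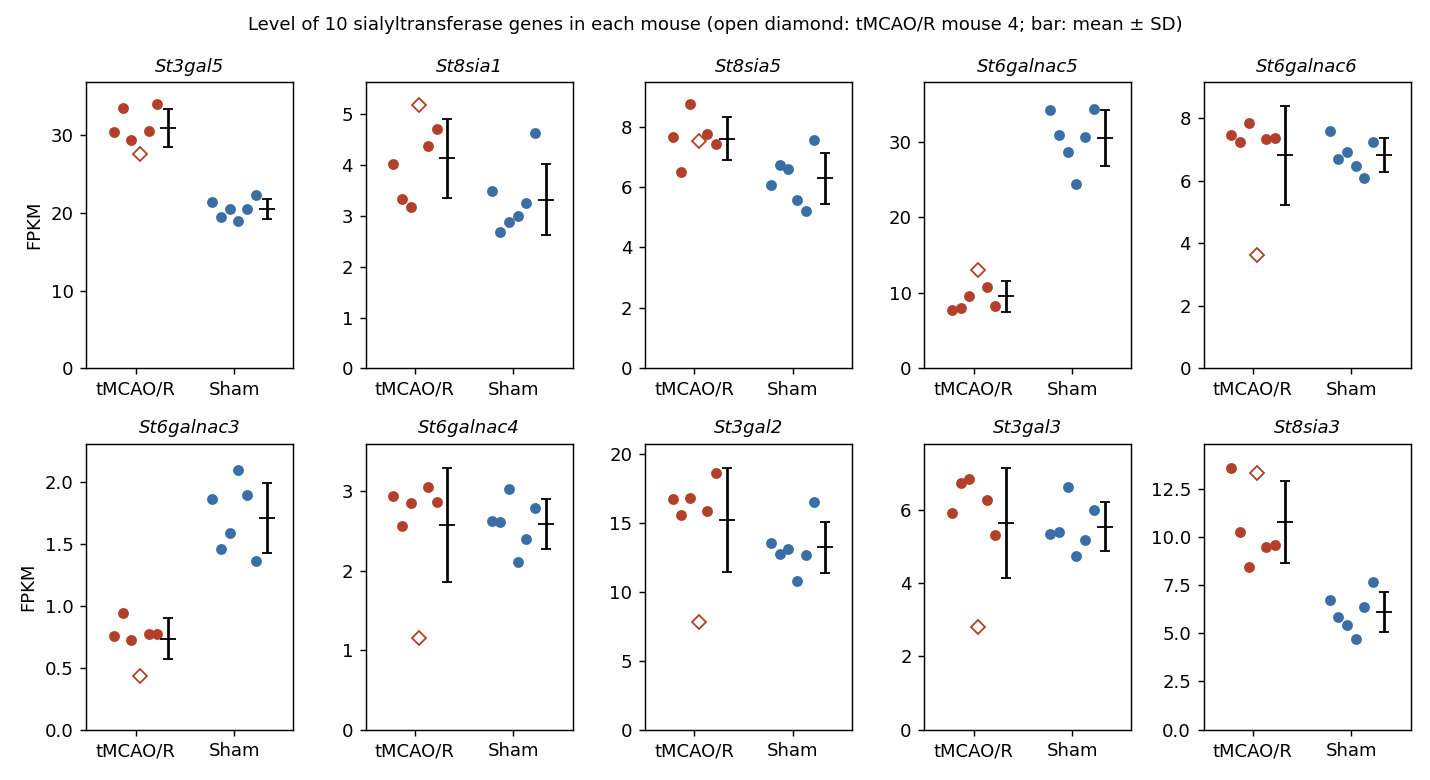
Level (FPKM, vertical axis from 0, a separate scale for each gene) of the 10 sialyltransferase genes in 6 tMCAO/R mice (left of each panel) and 6 Sham mice (right). Each point is 1 mouse, the open diamond is tMCAO/R mouse 4, and bars give the mean ± SD. St6galnac5 and St6galnac3 lie lower and St3gal5 and St8sia3 higher in all tMCAO/R mice than in any Sham mouse, and mouse 4 lies far below its group for St6galnac6, St6galnac4, St3gal2 and St3gal3.

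The ganglioside enzymes begin with St3gal5, the GM3 synthase, which places the first sialic acid on lactosylceramide and so supplies nearly all complex gangliosides of brain. Its level was lowest at 27.6, median 30.4 and highest at 34.0 FPKM in tMCAO/R mice, against 18.9, 20.5 and 22.3 FPKM in Sham mice. The groups did not overlap, and tMCAO/R mouse 4 was the lowest of its group. The means were 30.9 ± 2.42 FPKM in tMCAO/R mice and 20.5 ± 1.25 FPKM in Sham mice (SD, n = 6 each). The difference in log2(FPKM + 1) was 0.57 (standard error 0.08), and 0.60 without tMCAO/R mouse 4. St3gal5 (ENSMUSG00000056091) has 7 exons on the plus strand at chr6:72074329-72131556 of GRCm39. The 250 bases before its outermost annotated start, chr6:72074079-72074328 on the plus strand, are shown because St3gal5 had the highest level of the 10 genes in tMCAO/R mice. They hold no GC box (GGGCGG on either strand), the short motif of many promoters that lack a TATA box.
St3gal5: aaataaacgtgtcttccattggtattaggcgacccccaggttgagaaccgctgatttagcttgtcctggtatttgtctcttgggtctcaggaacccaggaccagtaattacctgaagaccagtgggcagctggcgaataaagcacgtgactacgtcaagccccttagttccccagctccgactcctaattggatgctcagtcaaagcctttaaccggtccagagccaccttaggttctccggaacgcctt

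St8sia1 encodes the GD3 synthase, which adds a further sialic acid to GM3 and opens the b-series of gangliosides. In tMCAO/R mice its level was lowest at 3.18, median 4.20 and highest at 5.19 FPKM, compared with 2.68, 3.14 and 4.63 FPKM in Sham mice. The groups overlapped, since Sham mouse 6 lay above 4 of the 6 tMCAO/R mice, and the difference was 0.25 on the log2 scale (standard error 0.12). St8sia5 encodes an enzyme that adds sialic acid late in the pathway, to gangliosides such as GD1a and GT1b. It averaged 7.60 ± 0.723 FPKM in tMCAO/R mice and 6.28 ± 0.850 FPKM in Sham mice (SD, n = 6 each), a log2 difference of 0.24 with a standard error of 0.10. Sham mice 2, 3 and 6, at 6.71, 6.61 and 7.55 FPKM, lay within the tMCAO/R range of 6.50 to 8.76 FPKM. Leaving out tMCAO/R mouse 4 gave 0.19 for St8sia1 and 0.25 for St8sia5.

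St6galnac5 encodes an enzyme that converts GM1b to the alpha-series ganglioside GD1alpha, and in mouse it is expressed mainly in brain. Its level was lowest at 7.74, median 8.90 and highest at 13.0 FPKM in tMCAO/R mice, against 24.4, 30.8 and 34.4 FPKM in Sham mice. All tMCAO/R mice lay below all Sham mice. The highest tMCAO/R value was that of mouse 4, and the lowest Sham value that of Sham mouse 4. The means were 9.55 ± 2.03 FPKM in tMCAO/R mice and 30.6 ± 3.73 FPKM in Sham mice (SD, n = 6 each). On the log2 scale the difference was -1.59 (standard error 0.13), and -1.68 without tMCAO/R mouse 4. Beside this gene the hippocampal markers, all 6 of which fell, moved the same way, and their part in the difference was not tested. In bulk tissue, fewer cells of a type and less RNA per cell cannot be told apart.

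St6galnac5 (ENSMUSG00000039037, 5 exons) lies on the minus strand at chr3:152522718-152687904. Pigk, which encodes the catalytic subunit of the transamidase that attaches GPI anchors, lies on the opposite strand and shares 1327 exonic bases with it. The strand setting of the counting was not given in the sources used here. Whether fragments of the shared bases were assigned to either gene or to neither is therefore not known. Pigk averaged 4.54 ± 0.310 FPKM in tMCAO/R mice and 5.36 ± 0.0915 FPKM in Sham mice (log2 difference -0.20, limma adjusted p = 0.0271), which did not pass 0.01. The groups of Pigk values did not overlap, but its levels lay below those of St6galnac5 in every library.

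St6galnac6, which also makes alpha-series gangliosides, differed little between the groups. It averaged 6.81 ± 1.58 FPKM in tMCAO/R mice and 6.84 ± 0.546 FPKM in Sham mice (SD, n = 6 each; log2 difference -0.03, standard error 0.14). The tMCAO/R spread came from mouse 4, at 3.61 FPKM, while the other 5 lay between 7.23 and 7.85 FPKM. Without mouse 4 the log2 difference was 0.11, so its sign depends on that library.

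Of the genes whose enzymes act on O-GalNAc glycans, St6galnac3 encodes an enzyme that adds sialic acid to sialyl-T chains and, in vitro, to GM1b. It was the least abundant of the 10 genes. Its level was lowest at 0.431, median 0.764 and highest at 0.941 FPKM in tMCAO/R mice, against 1.36, 1.72 and 2.09 FPKM in Sham mice. The groups did not overlap, and tMCAO/R mouse 4 was the lowest of all 12 libraries. The means were 0.733 ± 0.166 FPKM in tMCAO/R mice and 1.71 ± 0.283 FPKM in Sham mice (SD, n = 6 each). The difference was -0.64 in log2(FPKM + 1) (standard error 0.09) and -0.59 without mouse 4. The added 1 FPKM shrinks the difference of a gene at this level, and on recovered fragments with limma-voom it was -1.23. The lowest library held 59 fragments of this gene and the highest 308.
St6galnac3 (ENSMUSG00000052544) has 5 exons on the minus strand at chr3:152903903-153430816. The 250 bases before its start, chr3:153430817-153431066 on the minus strand, are shown as the counterpart to those of St3gal5 from a gene that was lower in tMCAO/R mice, and they hold 1 GC box, in capitals.
St6galnac3: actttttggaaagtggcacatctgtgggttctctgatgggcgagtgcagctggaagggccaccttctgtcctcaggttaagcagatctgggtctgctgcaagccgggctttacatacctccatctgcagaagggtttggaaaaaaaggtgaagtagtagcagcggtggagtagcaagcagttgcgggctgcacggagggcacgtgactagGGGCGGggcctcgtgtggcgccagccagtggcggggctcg

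A GC box was found in 29.9% of 21770 windows of the same 250 bases before protein-coding genes, and in 3 of the 6 member promoters examined (St6galnac3, St6galnac4 and St8sia1, but not St3gal5, St3gal3 or St6galnac6). The letters TATAAA, on either strand, were in none of the 6 and in 12.5% of all windows. Promoters of St3gal2, St6galnac5, St8sia3 and St8sia5 were not analysed here. A match of letters is a description of the window and says nothing of binding.

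St6galnac4 encodes the enzyme that makes the disialyl-T chain of O-glycans from sialyl-T. It averaged 2.57 ± 0.716 FPKM in tMCAO/R mice and 2.59 ± 0.315 FPKM in Sham mice (SD, n = 6 each; log2 difference -0.04, standard error 0.14). Here too mouse 4 was low, at 1.15 FPKM against 2.56 to 3.06 FPKM in the other 5 tMCAO/R mice, and without it the log2 difference was 0.11. St3gal2 encodes an enzyme that sialylates both core O-glycans and the terminal galactose of gangliosides, and in mouse it is a main source of GD1a and GT1b. Its level was lowest at 7.84, median 16.3 and highest at 18.6 FPKM in tMCAO/R mice, compared with 10.8, 12.9 and 16.5 FPKM in Sham mice. Mouse 4 gave the lowest value of all 12 libraries, and the groups overlapped with and without it. The log2 difference of St3gal2 was 0.16 (standard error 0.17) with all libraries and 0.32 without mouse 4.

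The last pair acts on several acceptors, N-glycans among them. St3gal3, which caps the galactose of N-glycans and contributes to GD1a and GT1b together with St3gal2 in mouse, averaged 5.64 ± 1.51 FPKM in tMCAO/R mice and 5.54 ± 0.671 FPKM in Sham mice (SD, n = 6 each). Its log2 difference was -0.01 (standard error 0.16), and 0.14 without mouse 4, whose 2.79 FPKM was the lowest of the 12 libraries. St8sia3 encodes an enzyme that extends sialic acid chains on glycoproteins and gangliosides, and in mouse it is most abundant in striatum. Its level was lowest at 8.46, median 9.92 and highest at 13.5 FPKM in tMCAO/R mice, against 4.72, 6.10 and 7.68 FPKM in Sham mice, without overlap. The log2 difference of St8sia3 was 0.72 (standard error 0.13), and 0.66 without mouse 4.
All 7 striatal markers rose as well (summed level 52.2 to 490 FPKM in tMCAO/R mice and 22.0 to 31.9 FPKM in Sham mice). Of 6 neuron markers, 3 rose and none fell (summed level 701 to 952 FPKM in tMCAO/R mice and 571 to 692 FPKM in Sham mice). The part of striatal tissue or of neurons in the St8sia3 difference was not tested.

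**Figure D2:**
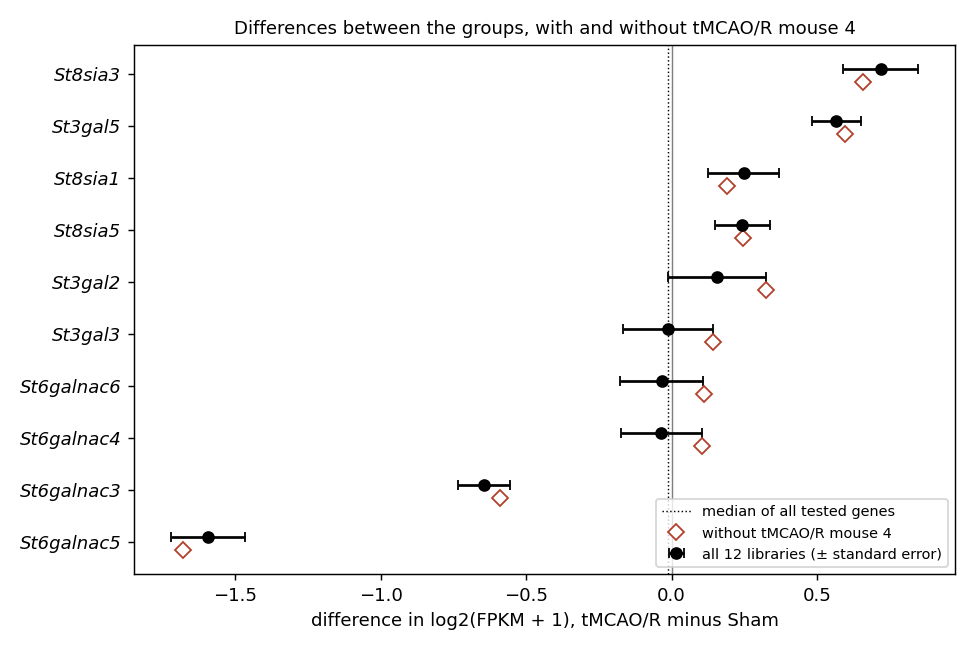
Difference in log2(FPKM + 1), tMCAO/R minus Sham (horizontal axis), for the 10 genes ordered by size. Filled circles with bars are all 12 libraries with the standard error, open diamonds leave out tMCAO/R mouse 4, and the dotted line is the median of all tested genes at -0.01. St8sia3 and St3gal5 lie on the higher side, St6galnac3 and St6galnac5 on the lower side, and St3gal3, St6galnac6 and St6galnac4 cross 0 when mouse 4 is left out.

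The contrast between ganglioside and O-glycan enzymes was followed through the sums of their levels. The summed level of the 5 ganglioside genes (St3gal5, St8sia1, St8sia5, St6galnac5 and St6galnac6) was 59.0 ± 1.90 FPKM in tMCAO/R mice and 67.5 ± 6.23 FPKM in Sham mice (SD, n = 6 each), with overlap. Leaving St6galnac5 out of the sum turned the order, with 49.4 ± 3.10 FPKM in tMCAO/R mice and 37.0 ± 2.84 FPKM in Sham mice and no overlap. Leaving out St3gal5 in its place gave 28.1 ± 1.91 FPKM in tMCAO/R mice and 47.0 ± 5.09 FPKM in Sham mice, also without overlap, so the sum balanced these genes against each other. The 3 O-GalNAc genes (St6galnac3, St6galnac4 and St3gal2), some of which also use gangliosides, summed to 18.5 ± 4.59 FPKM in tMCAO/R mice and 17.5 ± 1.86 FPKM in Sham mice. Mouse 4 was at 9.42 FPKM there, the other 5 tMCAO/R mice at 19.0 to 22.2 FPKM and the Sham mice at 15.0 to 20.7 FPKM. Most of this sum was St3gal2, which also acts on gangliosides, with means of 15.2 FPKM in tMCAO/R mice and 13.2 FPKM in Sham mice. St6galnac3 added only 0.733 and 1.71 FPKM, so its lower level hardly shows in the sum. The sums therefore do not separate ganglioside from O-glycan acceptors. St3gal3 and St8sia3 together gave 16.4 ± 1.66 FPKM in tMCAO/R mice and 11.7 ± 1.38 FPKM in Sham mice, without overlap. These sums mix genes whose differences were known, and they are given as descriptions.

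The total over all 10 genes averaged 93.9 ± 5.85 FPKM in tMCAO/R mice and 96.7 ± 9.32 FPKM in Sham mice, with overlap, while its makeup differed. St6galnac5 took 10.3 ± 2.94% of the total in tMCAO/R mice and 31.6 ± 1.55% in Sham mice. St3gal5 took 32.9 ± 1.76% in tMCAO/R mice and 21.3 ± 0.960% in Sham mice. The share of St8sia3 was 11.6 ± 2.83% in tMCAO/R mice and 6.30 ± 0.539% in Sham mice. None of these 3 shares overlapped between the groups. The ratio of St3gal5 to St6galnac5, the first ganglioside enzyme over a late one, was 3.38 ± 0.825 in tMCAO/R mice and 0.676 ± 0.0584 in Sham mice.
The 4 St6galnac genes summed to 19.7 ± 1.43 FPKM in tMCAO/R mice and 41.7 ± 4.11 FPKM in Sham mice, without overlap. Of that sum, St6galnac5 made up 40.9% to 49.0% in 5 tMCAO/R mice, 71.5% in tMCAO/R mouse 4, against 69.5% to 75.1% in Sham mice. In this share mouse 4 lay within the Sham range, and the other 5 tMCAO/R mice lay below it.

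**Figure D3:**
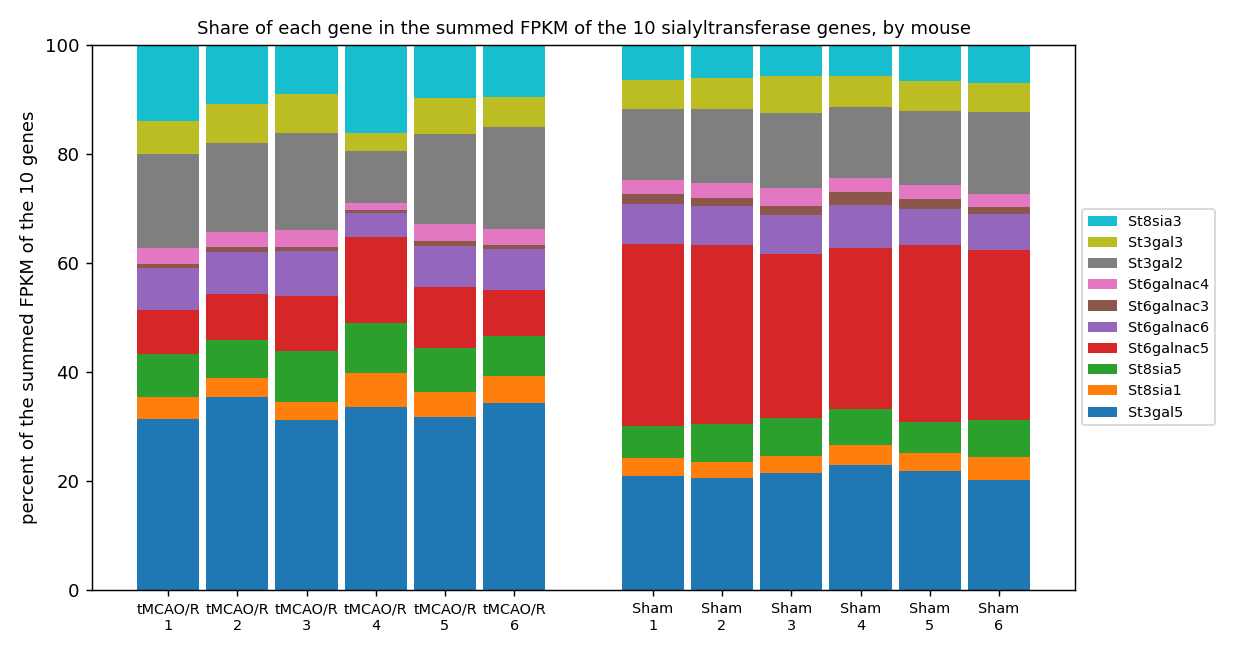
Percent of the summed FPKM of the 10 genes taken by each gene (stacked, vertical axis from 0 to 100%), with 1 bar per mouse, the 6 tMCAO/R mice left and the 6 Sham mice right. St6galnac5 takes 7.97% to 15.8% in tMCAO/R mice, against 29.5% to 33.3% in Sham mice, and St3gal5 takes 31.1% to 35.4% in tMCAO/R mice, against 20.2% to 22.9% in Sham mice.

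The order of the levels changed accordingly. In tMCAO/R mice St3gal5 stood first, followed by St3gal2, St8sia3, St6galnac5, St8sia5, St6galnac6, St3gal3, St8sia1, St6galnac4 and St6galnac3. Neighbours from St3gal2 down to St8sia1 had ranges that overlapped across mice. Within every tMCAO/R mouse, St6galnac5 lay above St8sia5 and St6galnac6 above St3gal3. The other overlapping neighbours changed order between mice. St3gal5 at the top and St6galnac4 and St6galnac3 at the bottom were separate from their neighbours. In Sham mice St6galnac5 stood first, followed by St3gal5, St3gal2, St6galnac6, St8sia5, St8sia3, St3gal3, St8sia1, St6galnac4 and St6galnac3. There the top 3 genes were each separate from the next, St6galnac6, St8sia5, St8sia3 and St3gal3 overlapped with their neighbours, and so did St8sia1 with St6galnac4.

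In tMCAO/R mouse 4, 5 of the 10 genes (St6galnac6, St6galnac3, St6galnac4, St3gal2 and St3gal3) had their lowest level of all 12 libraries. There 1 (St8sia1) had its highest, and 8 of the 10 lay outside the range of the other 5 tMCAO/R mice. The matching shares over all tested genes are not given here, so nothing particular to these genes is read from the counts. The deviation of mouse 4 moved with the GC content of the transcript. From the fifth of tested genes with the least GC to the fifth with the most, the median deviation of mouse 4 from the median of the other tMCAO/R mice was 0.41, 0.15, -0.09, -0.36 and -0.62 in log2(FPKM + 1). Across 11741 genes, which are not independent, Spearman's rho of deviation with GC was -0.72. St3gal3 (59.2% GC) deviated by -0.94, St6galnac6 (57.9% GC) by -0.86, St6galnac4 (56.9% GC) by -0.85 and St3gal2 (55.2% GC) by -1.001. The genes above 0 were all low in GC, with St8sia3 (43.8% GC) at 0.44, St8sia1 (45.5% GC) at 0.30 and St6galnac5 (46.6% GC) at 0.59. St6galnac3 departed from that pattern, with 44.9% GC and a deviation of -0.31, and so did St8sia5, with 56.2% GC and -0.02. St3gal5 (53.1% GC) deviated by -0.14. The part of GC content in the values of mouse 4 was not tested beyond these figures.

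**Figure D4:**
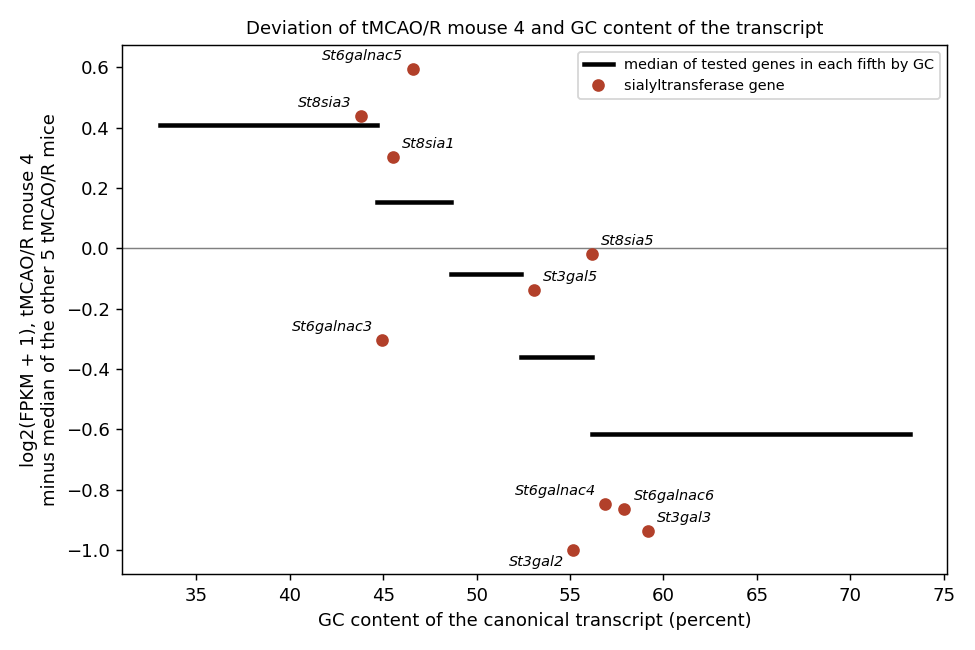
Deviation of tMCAO/R mouse 4 from the median of the other 5 tMCAO/R mice in log2(FPKM + 1) (vertical axis) against the GC content of the canonical transcript in percent (horizontal axis). Black bars are medians of tested genes in 5 bins by GC of nearly equal number, from 0.41 to -0.62, and points are the 10 sialyltransferase genes. St3gal2, St3gal3, St6galnac6 and St6galnac4 lie at the lower right, and St6galnac5, St8sia3 and St8sia1 at the upper left.

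St6galnac5 and St6galnac3, the pair with lower levels in tMCAO/R mice, are neighbours on chromosome 3. The gap between them is 215998 bases and holds no protein-coding gene. St6galnac4 and St6galnac6, whose levels overlapped between the groups, are neighbours as well, at chr2:32476963-32489710 and chr2:32489721-32510825, separated by 10 bases on the same strand. The other genes lie at chr6:142767271-142910178 (St8sia1), chr8:111646367-111699497 (St3gal2), chr4:117789348-117992380 (St3gal3), chr18:64387430-64412682 (St8sia3) and chr18:77272738-77348090 (St8sia5). St8sia3 shares 2004 exonic bases with the antisense RNA St8sia3os, and St8sia5 shares 1184 with Gm7276, neither of which is in the table. How reads of the shared bases were counted is not known.

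The tested genes whose pattern over the 12 libraries was most like that of St8sia3, the most positive log2 difference of the 10, were Rybp, Tmed8 and Sgpp1. Likeness was the root mean square difference in log2(FPKM + 1) after centring each gene, and it was 0.087, 0.095 and 0.097 for these genes in that order. The nearest of the other 9 sialyltransferases was St3gal5, at 0.235. The 3 genes nearest to St6galnac5, the most negative log2 difference of the 10, were Gabra5, a subunit of GABA-A receptors, at 0.135, Sertm1 at 0.141 and Scoc at 0.180. Gabra5 averaged 6.89 ± 1.86 FPKM in tMCAO/R mice and 24.6 ± 2.99 FPKM in Sham mice. St6galnac3, the nearest sialyltransferase, was at 0.570.

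The rest of the pathway was compared with limma on all tested genes. At the threshold, 17.8% of all tested genes were higher and 17.8% lower in tMCAO/R mice. The list counts below are given beside that share, and nothing about a list is read from them. Of 20 mouse sialyltransferase genes, 10 are those above. Of the other 10, 7 were tested, 2 rose, none fell, and the median log2 difference was 0.25, with -0.01 over all tested genes. St6gal2, which adds sialic acid to the ends of protein glycans, was at 4.29 to 7.99 FPKM in tMCAO/R mice and 1.16 to 1.97 FPKM in Sham mice, without overlap. It averaged 6.65 ± 1.40 FPKM in tMCAO/R mice and 1.63 ± 0.313 FPKM in Sham mice and rose by 1.53 on the log2 scale (standard error 0.13, limma adjusted p = 7.36e-07). St8sia2, a polysialic acid synthase best known from the developing brain, averaged 0.829 ± 0.395 FPKM in tMCAO/R mice and 0.328 ± 0.106 FPKM in Sham mice and passed narrowly (log2 difference 0.44, limma adjusted p = 0.00916). Its groups overlapped, and 9 of the 12 omissions of a single library ended the call.
St8sia4, the other polysialic acid synthase, averaged 0.548 ± 0.264 FPKM in tMCAO/R mice and 0.597 ± 0.105 FPKM in Sham mice (limma adjusted p = 0.631). St3gal1, St3gal4, St3gal6 and St6gal1 did not pass either, with log2 differences of 0.35, -0.09, 0.03 and 0.25 and limma adjusted p = 0.0212, 0.422, 0.701 and 0.0535. St6galnac2 (0.484 ± 0.229 FPKM in tMCAO/R mice and 0.400 ± 0.121 FPKM in Sham mice) and St8sia6 (0.545 ± 0.250 FPKM in tMCAO/R mice and 0.507 ± 0.208 FPKM in Sham mice) lay below the minimum for testing.

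Genes that supply sialic acid did not pass the test. Of the 8 listed, 5 were tested and none rose or fell with limma at an adjusted p of 0.01 or with limma-voom, none had an unadjusted p below 0.05, and the median log2 difference was -0.05. Gne, the entry enzyme of sialic acid synthesis, averaged 1.96 ± 0.205 FPKM in tMCAO/R mice and 1.77 ± 0.124 FPKM in Sham mice (limma adjusted p = 0.286). Cmas, which activates sialic acid to CMP-sialic acid, averaged 13.6 ± 1.51 FPKM in tMCAO/R mice and 14.3 ± 0.756 FPKM in Sham mice (limma adjusted p = 0.533). Slc35a1, the Golgi transporter of the donor, averaged 3.30 ± 0.454 FPKM in tMCAO/R mice and 3.83 ± 0.633 FPKM in Sham mice (limma adjusted p = 0.187).

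Of 6 genes that build the ganglioside core, 1 rose and none fell (median log2 difference 0.29). It was B4galt5, a lactosylceramide synthase that makes the substrate of St3gal5, with 10.8 ± 1.37 FPKM in tMCAO/R mice and 6.59 ± 0.967 FPKM in Sham mice (log2 difference 0.63, limma adjusted p = 3.01e-04), higher in 6 of 6 tMCAO/R mice than in any Sham mouse. B4galt6, the lactosylceramide synthase with the higher level in these libraries, averaged 42.6 ± 10.2 FPKM in tMCAO/R mice and 35.5 ± 3.27 FPKM in Sham mice and did not pass (limma adjusted p = 0.148). Ugcg, the glucosylceramide synthase, did not pass either, with 14.3 ± 2.84 FPKM in tMCAO/R mice and 10.8 ± 1.69 FPKM in Sham mice (limma adjusted p = 0.0246). Slc35a2, the Golgi transporter of UDP-galactose, lay lower in all tMCAO/R mice than in any Sham mouse, with 1.47 ± 0.241 FPKM in tMCAO/R mice and 1.89 ± 0.0726 FPKM in Sham mice, and did not pass (log2 difference -0.23, limma adjusted p = 0.02). Without tMCAO/R mouse 4, B4galnt1, which commits gangliosides to the complex series, also passed, which made 2 of 6.

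Enzymes that draw on related substrates made up the next list. Of 7 listed, 4 were tested, 1 rose and 1 fell, with a median log2 difference of -0.18. Fut9, a fucosyltransferase that makes the Lewis x structure in brain, averaged 10.0 ± 3.80 FPKM in tMCAO/R mice and 3.20 ± 0.526 FPKM in Sham mice, without overlap (log2 difference 1.34, standard error 0.18, limma adjusted p = 4.46e-05). Gal3st1, the sulfotransferase that makes the myelin lipid sulfatide, averaged 2.69 ± 0.648 FPKM in tMCAO/R mice and 4.28 ± 0.474 FPKM in Sham mice and fell by 0.53 on the log2 scale (limma adjusted p = 0.00177).
Among 12 genes of ceramide supply, all tested, none rose and 2 fell, with a median of -0.01. Cers2, the ceramide synthase of the very long chains of myelin lipids, averaged 3.96 ± 0.732 FPKM in tMCAO/R mice and 6.73 ± 1.54 FPKM in Sham mice (log2 difference -0.63, limma adjusted p = 0.00133). Sptlc1, a subunit of the enzyme that starts sphingolipid synthesis, averaged 7.22 ± 0.671 FPKM in tMCAO/R mice and 9.89 ± 0.559 FPKM in Sham mice (log2 difference -0.41, limma adjusted p = 7.74e-04). Of 8 oligodendrocyte markers, 4 fell and none rose (summed level 402 to 733 FPKM in tMCAO/R mice and 725 to 1704 FPKM in Sham mice), and their part in the falls of Gal3st1, Cers2 and, given further on, Mag was not tested.

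Of 12 genes of sialidases and ganglioside breakdown, 11 were tested, 1 rose and none fell, with a median log2 difference of -0.10. It was Neu4, a sialidase of brain that acts on gangliosides and polysialic acid, which averaged 2.38 ± 0.317 FPKM in tMCAO/R mice and 1.46 ± 0.121 FPKM in Sham mice, without overlap (log2 difference 0.45, standard error 0.08, limma adjusted p = 2.59e-04). Psap, the precursor of the saposins that present sphingolipids to lysosomal enzymes, averaged 145 ± 19.8 FPKM in tMCAO/R mice and 126 ± 4.11 FPKM in Sham mice and did not pass (limma adjusted p = 0.136). Ctsa, the protective protein of the lysosomal sialidase Neu1, averaged 5.62 ± 1.28 FPKM in tMCAO/R mice and 7.43 ± 0.646 FPKM in Sham mice and did not pass either (limma adjusted p = 0.0263). Without tMCAO/R mouse 4, 3 genes of this list rose: Neu4, Psap and Arsa.

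Of 7 genes that build the O-GalNAc core to which St6galnac4 and St3gal2 add sialic acid, 4 were tested, 2 rose and 1 fell, with a median log2 difference of 0.42. C1galt1, the core 1 synthase, averaged 5.22 ± 2.08 FPKM in tMCAO/R mice and 2.42 ± 0.450 FPKM in Sham mice (log2 difference 0.82, limma adjusted p = 9.46e-04). Mouse 4, at 9.39 FPKM, was the highest, and without it the log2 difference was 0.66. C1galt1c1 encodes Cosmc, the chaperone that this synthase needs, and it averaged 9.84 ± 1.26 FPKM in tMCAO/R mice and 15.0 ± 1.81 FPKM in Sham mice (log2 difference -0.56, limma adjusted p = 5.51e-04). The enzyme and its chaperone thus moved in opposite directions, each without overlap between the groups. Gcnt4, a core branching enzyme, averaged 1.33 ± 0.426 FPKM in tMCAO/R mice and 0.396 ± 0.177 FPKM in Sham mice (log2 difference 0.73, limma adjusted p = 1.43e-04).

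Proteins of families that read or carry sialic acid made up the last list, with 6 of 12 genes tested. None was higher and 2 were lower, with a median log2 difference of -0.17. Siglech, a microglial member of the Siglec family, averaged 0.853 ± 0.117 FPKM in tMCAO/R mice and 1.50 ± 0.143 FPKM in Sham mice, without overlap (log2 difference -0.43, standard error 0.07, limma adjusted p = 1.18e-04). Of 6 microglial markers, 4 fell and none rose (summed level 15.8 to 24.7 FPKM in tMCAO/R mice and 27.5 to 31.3 FPKM in Sham mice), and their part in the fall of Siglech was not tested. Mag, the myelin lectin that binds GD1a and GT1b, averaged 10.5 ± 3.98 FPKM in tMCAO/R mice and 18.1 ± 3.52 FPKM in Sham mice with overlap (limma adjusted p = 0.00708), beside the lower oligodendrocyte markers given above, and 8 of the 12 omissions ended its call. Ncam1, the main carrier of polysialic acid, averaged 9.49 ± 0.681 FPKM in tMCAO/R mice and 10.5 ± 0.973 FPKM in Sham mice and did not pass (limma adjusted p = 0.187).

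**Figure D5:**
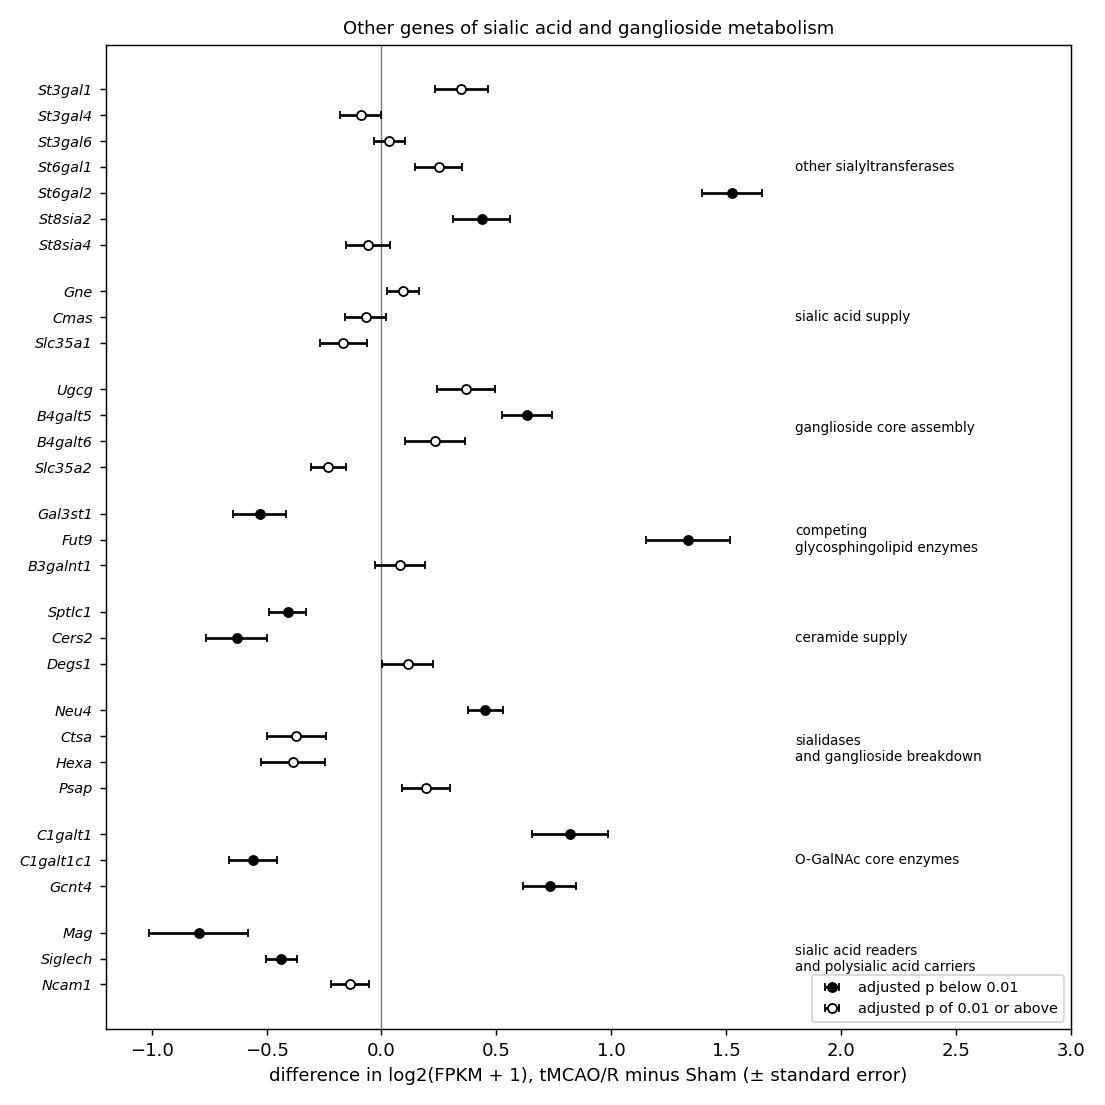
Difference in log2(FPKM + 1), tMCAO/R minus Sham, with its standard error (horizontal axis), for 30 tested genes of 8 lists of sialic acid and ganglioside metabolism. Filled points have a limma adjusted p below 0.01. St6gal2 (1.53) and Fut9 (1.34) lie farthest to the right and Mag (-0.80), Cers2 (-0.63) and C1galt1c1 (-0.56) farthest to the left, while none of the 3 genes of sialic acid supply is filled.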

How the data were processed

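Libraries of 6 tMCAO/R and 6 Sham mice were read as paired ends (Illumina NovaSeq). Per the submitters' processing notes, the authors used fastp (no version given), HISAT2 2.2.1 on GRCm39, HTSeq 2.0.2 and DESeq2 1.24.0, and deposited FPKM, 1 column per library. Which annotation release, strand setting and gene filter lie behind the table is not given in the sources used here.

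The members and gene lists were chosen with earlier results of these data known. Of all genes, 11743 had 0.5 FPKM or more in 6 libraries or more. For these, log2(FPKM + 1) was compared with limma 3.58.1 (lmFit and trended eBayes, R 4.3.3), p-values were adjusted by Benjamini-Hochberg over all of them, and the threshold was 0.01. "Rose" and "fell" refer to that threshold, and a log2 difference understates the change of genes with low FPKM. The genes named were all sialyltransferases and, from each further list, up to 4 genes, 2 by smallest p and 2 by highest mean FPKM. For the most positive and most negative member difference, the 3 genes with the most similar pattern were added. FPKM were whole multiples of 1 fragment for all 14317 genes (tolerance 1e-05), which gave 59 to 3404 fragments per library for the 10 genes. The limma fit was also run on fragments simulated around the Sham means, as a check of the fit alone. The simulation held no library like tMCAO/R mouse 4 and no difference of sex or tissue between the groups. Alternatives were a pseudocount of 0.1 or 0.5, no filter, a mean of at least 1 FPKM, quantile normalization, limma-voom on fragments (at least 10 in at least 6 libraries), the replicate number as a block and each library left out in turn. Positions, exons and GC content come from GENCODE M39. Summaries and figures used Python 3.11.15 (numpy 2.4.6, pandas 2.3.3, matplotlib 3.10.9). Protein sequences were not used here. A pair of list genes is not reported here.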

Additional observations from a re-analysis of the deposited data

Results flagged for a closer look

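Within each group of 6 mice, the highest or lowest value was looked at for its gap to the nearest other mouse, relative to the range of the group (Dixon's 95% limit for 6 values). Of 84 groups of values from 42 genes, 10 passed, and chance alone passes about 1 in 20. Of these, 8 were in tMCAO/R mouse 4. There St6galnac6 was low at 3.61 FPKM (7.23 to 7.85 FPKM in the other 5 tMCAO/R mice), St6galnac4 was low at 1.15 FPKM (2.56 to 3.06 FPKM) and St3gal2 was low at 7.84 FPKM (15.5 to 18.6 FPKM). In the same library C1galt1 was high at 9.39 FPKM (3.83 to 4.86 FPKM), Ugcg at 19.8 FPKM (11.9 to 14.0 FPKM) and B4galt6 at 62.3 FPKM (36.2 to 44.9 FPKM). St8sia4 was high there at 1.05 FPKM (0.353 to 0.591 FPKM), and St8sia6 was high at 1.05 FPKM (0.404 to 0.535 FPKM).

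In the Sham group, St8sia2 was high in mouse 5 at 0.532 FPKM (0.225 to 0.335 FPKM in the other 5), and B3galnt1, a globoside synthase, was low in mouse 3 at 17.5 FPKM (22.6 to 24.7 FPKM).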

How the results depend on the processing

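The directions of St3gal5, St8sia3, St6galnac5 and St6galnac3 held under all 19 alternatives. The size of St6galnac3 depended on the scale, with log2 differences of -1.13 at a pseudocount of 0.1, -0.84 at 0.5 and -1.23 with limma-voom on fragments. Among the other sialyltransferases only St6gal2 remained higher (1 gene) without a filter, at a mean of at least 1 FPKM, with limma-voom and with the replicate block, and omitting single libraries gave 1 to 3 genes. Quantile normalization gave 1 lower gene of ganglioside core assembly (Slc35a2), and a mean of at least 1 FPKM left 1 higher O-GalNAc core enzyme. Sialidases and breakdown had 2 higher genes without a filter, with quantile normalization and with limma-voom. Omitting single libraries gave 1 to 2 higher genes of ganglioside core assembly, 0 to 1 of ceramide supply and 1 to 3 of sialidases and breakdown, and 1 to 2 lower genes among sialic acid readers. Of the 30 named pathway genes tested, 24 stayed on the same side of the threshold in every alternative that tested them (a mean of at least 1 FPKM left out Gcnt4, St3gal6, St8sia2 and St8sia4), and differences near 0 could turn sign, such as St8sia4 (0.01 with quantile normalization) and St3gal6 (-0.01 without Sham mouse 3). The causes were not tested. Over all genes, omitting single libraries gave 1667 to 2629 higher and 1696 to 2491 lower genes.

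The replicate numbers share only a label: correlations of same-numbered mice lay between -0.12 and 0.22, and 0 of 6 mice correlated best with their own number. With the replicate block, 1761 genes were higher and 1699 lower, and St8sia2 and Mag no longer passed the threshold. In the list of readers and carriers, 1 gene (Siglech) remained lower. Among the 10 genes, depth limits St6galnac3 most, with 59 fragments in tMCAO/R mouse 4.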
